A study of Salmo salar with 18 samples.

Results

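The immediate early genes ier2 and ier2a were followed in gills of Atlantic salmon (Salmo salar) before and after a short hypoxia stress. They are 2 of the 69389 genes in the count files and were picked by their gene identifiers, with earlier results of these data known. Their course over the sampling times was therefore described and not tested. The rule for the pair names no diet difference and does not say which earlier results were used. The comparison of the diets was taken not to have entered the choice, and was tested on that assumption.

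Immediate early genes are switched on within minutes of a stimulus, because the transcription factors that start them are already present in the resting cell. Their mRNA is usually short-lived, so a brief stimulus gives a brief pulse of transcript. In mammals IER2 is induced by growth factors, serum and cell stress, and its protein is found in the nucleus and the cytoplasm and takes part in the control of transcription. In the gill, which exchanges gas and salts and is exposed to the water, transcripts of this kind give a view of how recently the tissue received a signal.

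Fish of the genetic line Gain from AquaGen AS had eaten either a control diet (CD) or CD supplemented with LAN4, a product of the yeast Debaryomyces hansenii, for 7 weeks and for 1 further week after a move to other tanks. The pre-stress groups were not exposed, and those of 1 h and 6 h post-stress had been netted out of the water for 1 min and put back. Each of the 6 groups held 3 fish with 1 gill library per fish, which gave 18 libraries. The paper took its gill samples from the second arch of the left side. The labels state no age. Before the stress the fish of each diet were spread over as many tanks as there were sampling times in the whole trial, with as many fish in a tank as were taken at a time. The tank of each sequenced fish was not given in the sources used here, so that a group may be a single tank, and tank and group cannot be told apart.

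Libraries held between 10128626 and 19851609 counted fragments. The 6 h libraries had counts along the whole length of between 16 and 24 of the 29 chromosomes, and all 18 libraries had them on 16 chromosomes, which carry 42615 genes, ier2 and ier2a among them. All values below are scaled on the genes of these 16 chromosomes, of which 23153 passed the filter on low counts. The names of the alignments place the 1 h libraries on lane 1 and those of the other times on lane 3, so that lane and the 1 h sampling time cannot be told apart. Of the 16 names on the list of gill epithelium and ionocyte markers, 5 matched a gene that passed the filter, and the cotransporter gene slc12a2 of ionocytes was the most abundant of these.

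ier2 (ENSSSAG00000058660) lies on the plus strand of chromosome 12 of the Ssal_v3.1 assembly, from 20816813 to 20819469. Its counted exons run from 20816813 to 20817816 and from 20817926 to 20819469, 2548 bases together. ier2a (ENSSSAG00000115652) lies on the minus strand of chromosome 6, from 25774947 to 25777637, and is counted over a single exon of 2691 bases. Neither span is overlapped by another gene of the files (0 genes), and the counting used the strand and left out fragments that mapped to several places. The nearest gene to ier2 that passed the filter, ENSSSAG00000115303, lies 3801 bases from it at lower coordinates, on the minus strand. In this neighbour the log2 fold change from pre-stress to 1 h was 0.31 in CD and 0.15 in LAN4 (adjusted p = 0.138 and 0.544 by edgeR). The neighbour of ier2a, LOC106606789 (ENSSSAG00000048790), lies 1333 bases from it at higher coordinates, also on the minus strand. Its log2 fold changes were 0.23 and 0.14 (adjusted p = 0.242 and 0.54 by edgeR). The next genes on the other sides, LOC123725453 and ENSSSAG00000084394, had at most 4 and 3 counts in any library.

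Both genes had their lowest group means at pre-stress. In CPM, which are counts scaled to a normalized library size, ier2 was measured at 24.5, 21.2 and 12.3 in the CD fish and at 14.9, 15.8 and 16.7 in the LAN4 fish. The values of ier2a were 30.3, 24.5 and 15.5 CPM in CD and 22.2, 15.7 and 17.6 CPM in LAN4. CD replicate 3 was the lowest CD fish for both genes, and the diets overlapped.

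At 1 h post-stress the level of ier2 was 168, 110 and 104 CPM in CD and 121, 147 and 144 CPM in LAN4. Every 1 h fish was above every pre-stress fish, with the lowest 1 h value at 104 CPM and the highest pre-stress value at 24.5 CPM. For ier2a the 1 h values were 115, 64.2 and 69.9 CPM in CD and 78.1, 106 and 104 CPM in LAN4. These too were all above the pre-stress values, the highest of which was 30.3 CPM. CD replicate 1 had the highest value of both genes among the 1 h fish.

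At 6 h post-stress ier2 was at 30.5, 26.4 and 40.0 CPM in CD and at 31.9, 34.2 and 30.6 CPM in LAN4. These values lay below all 1 h values and above all pre-stress values. ier2a was at 29.9, 32.1 and 41.0 CPM in CD and at 30.9, 31.1 and 29.0 CPM in LAN4. For ier2a the 6 h and pre-stress fish overlapped, since CD replicate 1 at pre-stress (30.3 CPM) was above 2 of the 6 h fish.

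**Figure D1:**
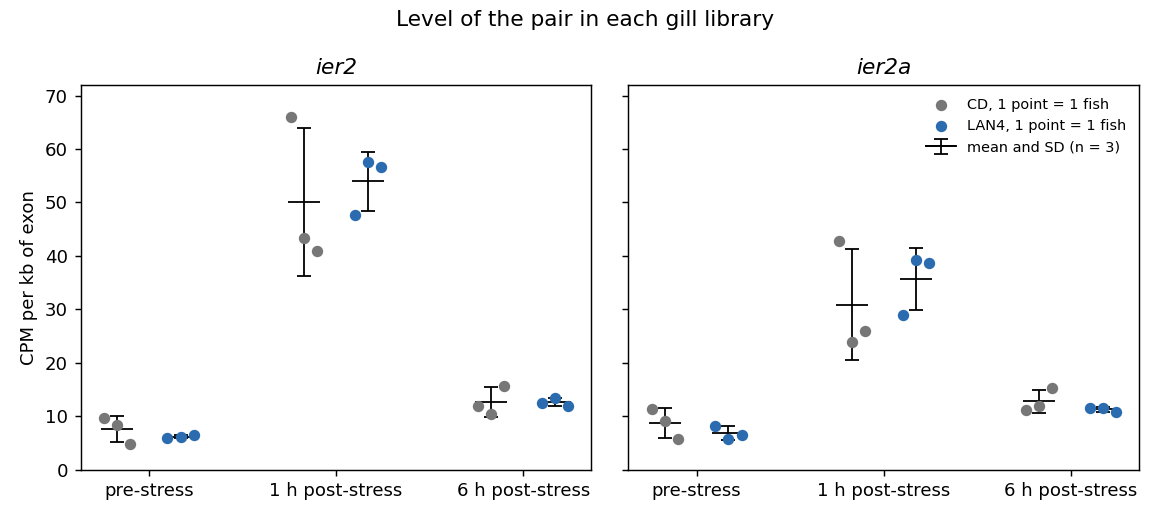
Level of ier2 (left) and ier2a (right) in CPM per kb of exon, by sampling time and diet, with 1 point per fish and the mean and SD of 3 fish in black. The 1 h fish lie between 23.9 and 65.9 CPM per kb, above all pre-stress fish (4.84 to 11.3) and all 6 h fish (10.4 to 15.7).

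The group mean of ier2 in pre-stress fish was 19.4 ± 6.31 CPM (SD, n = 3) for CD and 15.8 ± 0.865 CPM for LAN4. It was 128 ± 35.1 and 137 ± 13.9 CPM at 1 h and 32.3 ± 6.97 and 32.2 ± 1.85 CPM at 6 h. From high to low the groups stood as LAN4 1 h, CD 1 h, CD 6 h, LAN4 6 h, CD pre-stress and LAN4 pre-stress. Within each sampling time the diets were neighbours in this order and their fish overlapped, while the fish of different sampling times did not. ier2a kept the same order, with 1 h means of 96.0 ± 15.5 CPM for LAN4 and 83.1 ± 27.9 CPM for CD. Its 6 h means were 34.3 ± 5.92 CPM for CD and 30.3 ± 1.15 CPM for LAN4, and its pre-stress means 23.4 ± 7.47 and 18.5 ± 3.32 CPM. For ier2a only the step from the 1 h groups to CD 6 h was free of overlap. The share of all genes whose fish lie apart between sampling times in this way was not counted. The course over time was also known when the pair was chosen, so nothing is read from these separations. Fewer cells of a type and less RNA per cell cannot be told apart in such whole-tissue libraries.

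The log2 fold change of ier2 from pre-stress to 1 h was 2.71 in CD (standard error 0.224) and 3.12 in LAN4 (standard error 0.231), which is 6.55-fold and 8.71-fold. For ier2a it was 1.82 (standard error 0.243) in CD and 2.37 (standard error 0.251) in LAN4, or 3.53-fold and 5.18-fold. Among the 23153 genes ordered by this fold change, ier2 had rank 43 in CD and rank 38 in LAN4, and ier2a ranks 126 and 72. For comparison, 1.28% of all genes tested were called higher at 1 h in CD and 0.963% in LAN4 (adjusted p under 0.05), while the median log2 fold change of all genes was 0.00 and -0.01. Leaving out 1 library moved the count of all genes called in either direction from 443 to 171 in CD (without CD replicate 2 of 1 h) and from 263 to 167 in LAN4 (without LAN4 replicate 3 of 1 h). Since the course over time was known when the pair was chosen, nothing is read from these shares about the pair. Without CD replicate 1 of 1 h the log2 fold change in CD was 2.46 for ier2 and 1.51 for ier2a.

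From 1 h to 6 h the log2 fold change of ier2 was -1.98 in CD and -2.09 in LAN4 (standard errors 0.215 and 0.216). ier2a had -1.27 and -1.66 (standard errors 0.237 and 0.239). Between these times 11.8% of all genes tested were called in CD and 7.97% in LAN4, again given without a reading for the pair. The 6 h level was thus nearer to the pre-stress level than to that of 1 h. Against pre-stress, the 6 h values of ier2 stood at log2 fold changes of 0.73 in CD and 1.03 in LAN4 (standard errors 0.219 and 0.224). Those of ier2a were 0.54 and 0.71 (standard errors 0.242 and 0.248).

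Per kb of exon, which allows the levels of different genes to be set side by side, ier2 was between rank 6255 and rank 10708 of the 23153 genes in the pre-stress libraries. In the 1 h libraries it stood between rank 684 and rank 1333, and in the 6 h libraries between rank 3907 and rank 6016. ier2a stood between ranks 5391 and 9505 at pre-stress, 1168 and 2377 at 1 h, and 4034 and 5673 at 6 h.

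The levels of ier2 and ier2a were also compared within each library, as a ratio of counts per kb that does not depend on library scaling. At pre-stress this ratio was 0.854, 0.915 and 0.841 in CD and 0.712, 1.06 and 0.999 in LAN4. It was below 1 in 5 of the 6 fish, with the LAN4 fish at 0.999 a near tie. The side of 1 on which a ratio falls depends on the exon lengths given above, while the order of the fish by this ratio does not. At 1 h it was 1.54, 1.82 and 1.58 in CD and 1.64, 1.46 and 1.46 in LAN4, with ier2 the more abundant transcript in each fish. At 6 h the ratio was 1.08, 0.869 and 1.03 in CD and 1.09, 1.16 and 1.11 in LAN4. Every 1 h fish lay above every fish of the other sampling times, and pre-stress and 6 h overlapped. As for the levels, nothing is read from this separation. Per kb of counted exon, the order of the pair was thus not the same at all sampling times. The group means ran from 0.870 ± 0.0393 (SD, n = 3) in CD at pre-stress to 1.65 ± 0.15 in CD at 1 h.

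**Figure D2:**
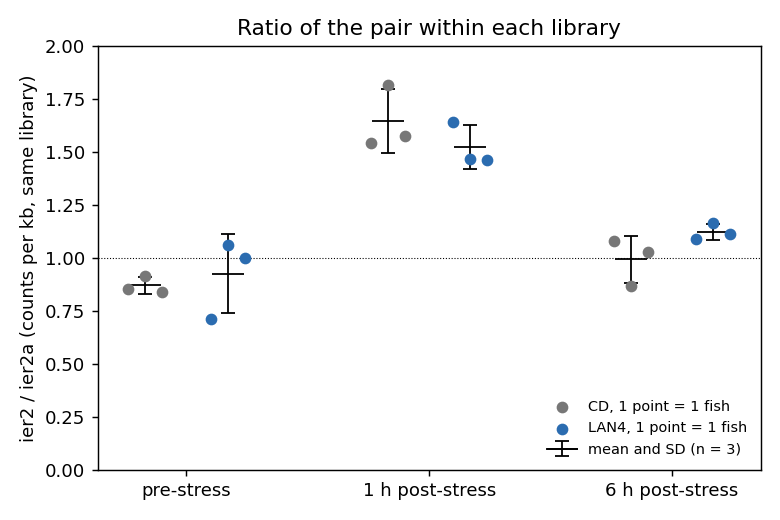
Ratio of ier2 to ier2a within each library, as counts per kb of exon, by sampling time and diet, with the mean and SD of 3 fish in black and a dotted line at equal levels. All 1 h fish lie between 1.46 and 1.82, above the pre-stress and 6 h fish, which lie between 0.712 and 1.16.

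Fish with a high value of one gene tended to have a high value of the other. Across the 18 fish, deviations of log2 CPM from the group means were correlated between ier2 and ier2a with Pearson's r = 0.87 and Spearman's rho = 0.79, given as a description. Both values of a fish share its library, lane and scaling. Within sampling times r was 0.85 at pre-stress, 0.97 at 1 h and 0.70 at 6 h over 6 fish each, and rho at 6 h was 0.37.

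The comparison of LAN4 with CD asked whether the yeast product altered the level of the pair or its course after stress. With the quasi-likelihood test of edgeR over all 18 libraries, neither gene passed the adjusted threshold in any of the 6 comparisons of the diets, and the smallest unadjusted p of the pair was 0.123. At pre-stress the log2 difference, LAN4 minus CD, was -0.30 for ier2 (95% interval -0.79 to 0.18, adjusted p = 0.716) and -0.34 for ier2a (-0.88 to 0.19, adjusted p = 0.704). Over all genes 0.00864% were called in this comparison (2 of 23153). Without CD replicate 1 the differences were -0.10 and -0.12, and without CD replicate 3 they were -0.54 and -0.57, with no call of either gene.

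At 1 h the log2 difference was 0.11 for ier2 (95% interval -0.33 to 0.54, adjusted p = 0.899) and 0.21 for ier2a (-0.28 to 0.70, adjusted p = 0.81). In this comparison 0 of the 23153 genes (0%) were called by edgeR, 1928 had an unadjusted p under 0.05, and DESeq2 called 21. Without the CD fish at 168 CPM the difference of ier2 was 0.35, and without CD replicate 3 it was -0.029, with no call in either case.

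At 6 h, where 0.587% of all genes were called, the log2 difference was 0.00 for ier2 (95% interval -0.45 to 0.45, adjusted p = 0.998) and -0.18 for ier2a (-0.68 to 0.33, adjusted p = 0.775). Joined over the sampling times, where 0.76% of genes were called, it was -0.07 for ier2 (-0.33 to 0.20, adjusted p = 0.902) and -0.10 for ier2a (-0.40 to 0.19, adjusted p = 0.842). As folds, the intervals over all times run from 0.796 to 1.15 for ier2 and from 0.759 to 1.14 for ier2a, so that the test does not show the diets to be alike. The shares of all genes rested on single libraries. At 6 h the count of 136 genes became 0 without CD replicate 2, LAN4 replicate 2 or LAN4 replicate 3 of 6 h, and 362 without CD replicate 1 of pre-stress. Over all times 176 became 23 without LAN4 replicate 1 of 1 h and 366 without CD replicate 1 of 6 h.

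**Figure D3:**
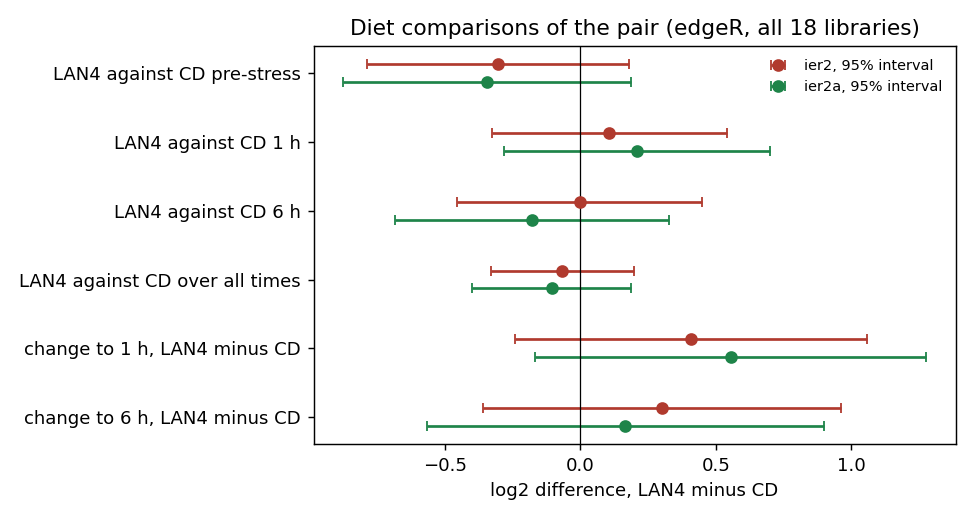
Log2 differences between the diets, LAN4 minus CD, for ier2 (red) and ier2a (green) with 95% intervals from edgeR, at each sampling time, joined over the times, and for the change from pre-stress. Each interval includes 0, and the widest reaches from -0.57 to 0.90 for the change of ier2a to 6 h.

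The change from pre-stress to 1 h was larger in LAN4 than in CD by 0.41 on the log2 scale for ier2 (95% interval -0.24 to 1.06, adjusted p = 0.659) and by 0.56 for ier2a (-0.17 to 1.28, adjusted p = 0.591). The interaction was called for 0.00864% of genes. For the change to 6 h, called for 0.00432% of genes, the difference was 0.30 for ier2 and 0.17 for ier2a (adjusted p = 0.996 for both). Single CD fish weighed on these terms. Without CD replicate 1 of pre-stress the difference in the change to 1 h was 0.21 for ier2 and 0.33 for ier2a, and without CD replicate 1 of 1 h it was 0.67 and 0.87, with no call in either case.

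Markers of other cell types were summed in each library and set side by side between the groups. Given here is each list whose summed level did not overlap between the diets at a sampling time, or between pre-stress and 1 h within a diet. At pre-stress the 5 tested genes of skeletal muscle (3 of 14 names) summed to 390 to 473 CPM in LAN4 and 59.9 to 239 CPM in CD, and the 4 cartilage genes (4 of 11 names) to 231 to 283 and 91.7 to 183 CPM. The 3 leukocyte genes (3 of 10 names) summed to 4491 to 4872 CPM in LAN4 and 5001 to 5558 CPM in CD. Their log2 differences, LAN4 minus CD, were -0.15 (cd74a, most of the sum), -0.05 (cd3e) and 0.0046 (LOC100194878). At 1 h the leukocyte sum was 4756 to 5657 CPM in LAN4 and 4395 to 4484 CPM in CD. That of 6 genes of the erythrocyte list (6 of 12 names) was 2242 to 2388 and 1734 to 2046 CPM. The log2 differences at 1 h were 0.24 (cd74a, again most of the leukocyte sum), 0.45 (LOC100194878) and -0.13 (cd3e). In the erythrocyte list they ran from -0.04 (tfr1a) to 1.15 (hbb1). The gene slc4a1b, matched by its suffix to the name slc4a1, was at 0.02. At 6 h muscle was at 329 to 472 CPM in LAN4 and 34.2 to 152 CPM in CD, cartilage at 225 to 274 and 83.8 to 162 CPM, and the 6 endothelial genes (5 of 10 names) at 1202 to 1453 and 764 to 1179 CPM. The log2 differences of the endothelial genes at 6 h ran from -0.04 (cldn5a) to 1.44 (plvapb). Each tested muscle and cartilage gene had a positive difference at pre-stress and at 6 h. From pre-stress to 1 h in CD, the cartilage sum was higher (91.7 to 183 against 227 to 377 CPM). The leukocyte sum was lower (5001 to 5558 against 4395 to 4484 CPM). Most of each sum came from a single gene, col2a1b (mean 127 and 272 CPM) and cd74a (mean 5195 and 4405 CPM). The other cartilage genes had log2 fold changes of 1.02 (hapln1b), 0.08 (col9a1b) and -1.06 (comp). The other leukocyte genes had 0.27 (cd3e) and 0.01 (LOC100194878). Over the same times in LAN4, the muscle sum was lower (390 to 473 against 146 to 317 CPM) and the sum of the erythrocyte list was higher (1838 to 2159 against 2242 to 2388 CPM). Of the matched muscle names, the genes for tnnt3 and pvalb1 on the complete chromosomes had at most 12 and 1 counts in any library. The ranges of some sums were thus apart between the diets or between pre-stress and 1 h. Of the genes in these lists, only pecam1a was called in a comparison shown for its list (LAN4 against CD at 6 h, adjusted p = 0.0409 by edgeR). Time comparisons with 6 h were left out above. From 1 h to 6 h the cartilage sum was apart in CD. In LAN4 the sums of gill epithelium, muscle, erythrocytes, endothelium and leukocytes were apart. From pre-stress to 6 h only the leukocyte sum in LAN4 was. From 1 h to 6 h edgeR called col2a1b, hapln1b, hbb1, pecam1a and foxi3a in CD. In LAN4 it called atp6v1ab, foxi3a and tfr1a, beside the shares of all genes given above. The share of all genes whose ranges lie apart in this way was not counted, so nothing is read from the separations. The part of these markers in the values of ier2 and ier2a was not tested.

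The other early response genes were taken from 5 lists of 70 names, chosen with earlier results of these data known. From each list the genes named below are called genes with the largest mean change to 1 h. Their counts and adjusted p-values over time carry both choices and are given as a description only. Without the pair, 40 genes matched by symbol or synonym, 32 of them on the complete chromosomes, and 31 passed the filter. Not every name had a match. No gene matched fos, fosb, egr1, egr2 or nr4a1, so the counts below do not cover all names on the lists. From pre-stress to 1 h, 17 of the 31 rose, 1 fell and 13 did not pass the test in CD. In LAN4 the counts were again 17, 1 and 13. Over all genes tested, the shares called higher were those given above for CD and LAN4, and 0.635% and 0.173% were called lower. The median log2 fold change of the 31 genes was 0.89 in CD and 0.77 in LAN4. Without LAN4 replicate 1 or replicate 3 of pre-stress, 11 list genes were called in LAN4, against 18 with all libraries. Without CD replicate 2 of pre-stress, 12 were called in CD, also against 18.

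The list of transcription factors of the AP-1 family, which act as dimers of Fos, Jun and related proteins, held 10 names. Of its 5 genes that passed the filter, 4 were higher at 1 h in each diet. Of these junb (ENSSSAG00000097267, chromosome 2) rose from 33.8 ± 12.7 to 197 ± 55.3 CPM (SD, n = 3) in CD and from 31.1 ± 5.85 to 217 ± 13.3 CPM in LAN4. Its log2 fold changes were 2.54 and 2.80 (adjusted p = 6.6e-05 and 2.02e-05 by edgeR), beside 2.71 and 3.12 for ier2. The rise was smaller for fosl2 (1.38 and 1.24), jun (1.42 and 1.15) and atf3, a factor induced by cell stress (1.31 and 1.35). jun differed from the pair later on, with 21.8 ± 3.14 CPM at 1 h and 21.5 ± 7.85 CPM at 6 h in CD.

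Of 8 other early transcription factors, 4 rose in CD and 5 in LAN4. The largest change was that of egr3, a zinc finger factor, with log2 fold changes of 2.53 in CD (standard error 0.552) and 4.05 in LAN4 (standard error 0.649), from a pre-stress level of 6.12 ± 7.28 and 1.91 ± 0.517 CPM. Its difference between the diets in this change, LAN4 minus CD, was 1.52 (adjusted p = 0.565 by edgeR). cebpb, a factor of inflammatory and metabolic genes, rose by 2.08 and 2.94, and klf2a, a factor of endothelial cells that responds to blood flow, by 1.17 and 1.49. LOC100286404, with klf2 among its synonyms, rose by 2.36 and 2.21. It was at 5.30 ± 0.896 CPM at pre-stress and 5.54 ± 0.908 CPM at 6 h in CD.

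Among 13 feedback regulators and genes of mRNA turnover, 6 rose in each diet. btg2, an antiproliferative gene that promotes the removal of mRNA tails, rose from 155 ± 9.0 to 366 ± 43.0 CPM in CD and from 153 ± 10.3 to 433 ± 46.9 CPM in LAN4 (adjusted p = 3.04e-06 and 2.86e-07 by edgeR), and was at 163 ± 6.94 and 151 ± 2.65 CPM at 6 h. The kinases plk3 (log2 fold changes 1.17 and 0.86) and plk2b (1.08 and 0.69) rose in both diets. dusp2, a phosphatase that switches off MAP kinases, passed the test in LAN4 (2.70, adjusted p = 0.0129) and had 1.53 in CD (adjusted p = 0.0976), and the difference between the diets in this change was 1.17 (adjusted p = 0.58). The spelling rule for names also took dusp11, an RNA phosphatase, into this list.

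Of 4 early secreted and matrix genes, 3 rose in CD and 2 in LAN4. ccn1, which encodes a matricellular protein, rose from 15.5 ± 4.22 to 117 ± 14.1 CPM in CD and from 15.3 ± 1.17 to 144 ± 17.5 CPM in LAN4, a log2 fold change of 2.91 and 3.24 (adjusted p = 1.12e-07 and 2.59e-08 by edgeR). At 6 h it was at 15.5 ± 4.15 and 18.6 ± 1.87 CPM. The growth factor gene areg rose in both diets (1.09 and 1.37). ptgs2b, which encodes a cyclooxygenase of prostaglandin synthesis, rose in CD (1.14, adjusted p = 0.0391) and had 0.86 in LAN4 (adjusted p = 0.168). Its difference between the diets in this change, LAN4 minus CD, was -0.28 (adjusted p = 0.835 by edgeR).

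Within the IER family itself, ier5l (ENSSSAG00000066882, chromosome 1) went the other way. It fell from 60.9 ± 7.18 to 37.4 ± 9.10 CPM in CD and from 60.3 ± 6.04 to 35.6 ± 3.66 CPM in LAN4 (log2 fold changes -0.70 and -0.76, adjusted p = 0.0303 and 0.0233 by edgeR). In CD it was not called without CD replicate 1 or replicate 2 of pre-stress, nor with only the groups compared in the fit. With the genes of all chromosomes in the fit it was not called in either diet. At 6 h it was at 66.4 ± 11.1 and 58.9 ± 7.88 CPM. The gene ier3 (ENSSSAG00000091300) lies on chromosome 24, which was not counted along its whole length in all 6 h libraries, and was not in the test. On the same scale its levels were 32.2, 19.8 and 20.9 CPM in CD and 22.0, 15.5 and 18.8 CPM in LAN4 at pre-stress. At 1 h they were 44.1, 26.8 and 31.6 CPM in CD and 28.4, 38.3 and 35.8 CPM in LAN4. The times overlapped in CD, where the highest pre-stress fish was at 32.2 CPM, and not in LAN4. The share of all genes with such a separation was not counted, so nothing is read from it about the diets.

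**Figure D4:**
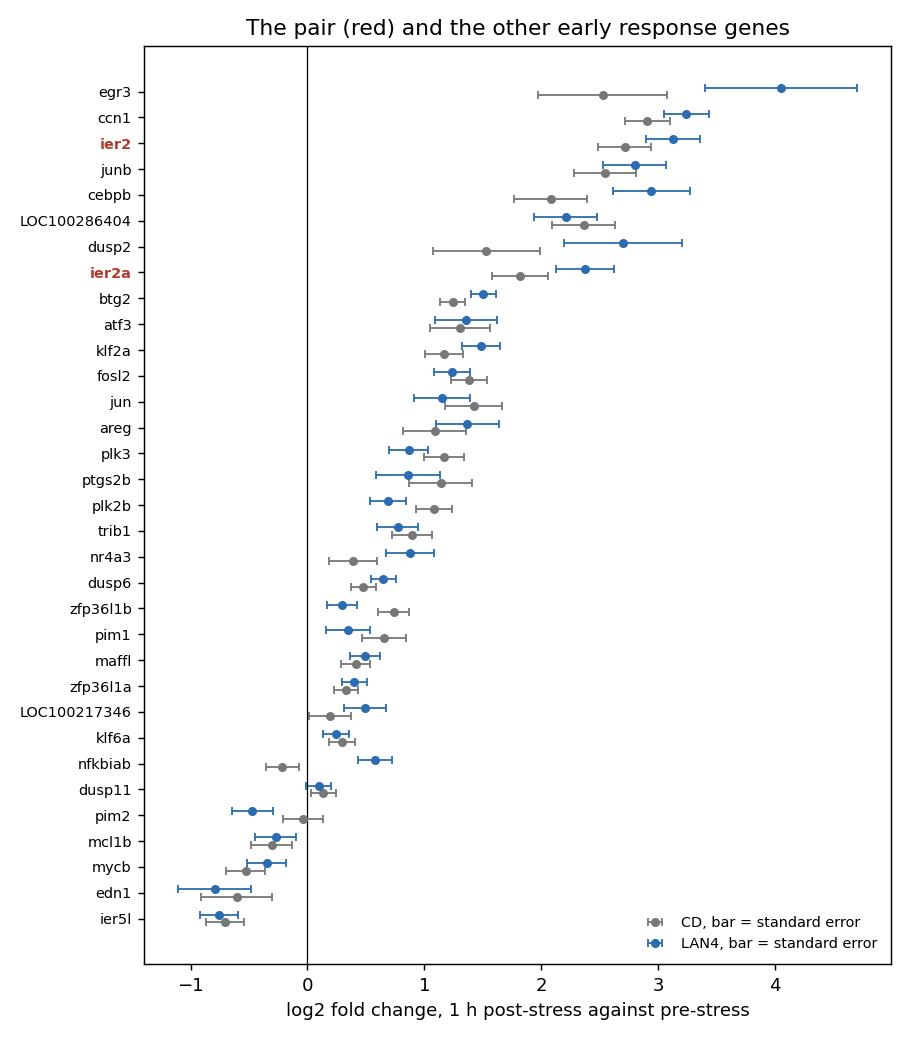
Log2 fold change from pre-stress to 1 h post-stress in CD (grey) and LAN4 (blue), with its standard error from edgeR, for ier2 and ier2a (red names) and the 31 other early response genes that passed the filter. The values of the others run from -0.70 to 2.91 in CD and from -0.79 to 4.05 in LAN4, and the pair lies in the upper part of both ranges.

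Against pre-stress, 6 of the 31 genes were called higher at 6 h in each diet, dusp11 among them in both. Over all genes 1.81% were called higher in CD and 2.36% in LAN4. The median log2 fold change of the 31 was 0.32 and 0.19. junb was still 1.35 higher in CD and 1.10 in LAN4 on the log2 scale (adjusted p = 0.0115 and 0.029), and dusp2 2.64 and 3.32 higher (adjusted p = 0.00642 and 0.00183 by edgeR). Between the diets the median log2 difference of the 31 genes, LAN4 minus CD, was -0.03 at pre-stress, 0.07 at 1 h and -0.15 at 6 h. The medians of all genes were -0.003, -9.7e-05 and -0.013. None of the 31 was called by edgeR between the diets at these times or in the change to 1 h, beside the shares of all genes given above.

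The genes whose log2 CPM over the 18 libraries was most like that of ier2 were LOC106604105 (Pearson's r = 0.99, chromosome 5), LOC106572480 (0.99, chromosome 15), ier2a itself (0.98), LOC106571028 (0.98, chromosome 15) and LOC106580723 (0.98, chromosome 20). For ier2a they were ier2 (0.98), LOC106592726 on chromosome 3 (0.97), LOC106604105 (0.97), LOC106572480 (0.97) and LOC106571028 (0.97). Of all 23153 genes ier2 was thus the most like ier2a over the 18 libraries, and ier2a ranked 3 for ier2. These correlations include the course over the sampling times, which was known when the pair was chosen (r of group means 0.996 for the pair). For deviations from the group means, r with ier2a was 0.90 for LOC106592726 and 0.87 for ier2. That of LOC106580723 with ier2 was 0.38. The 1 h libraries differ from the others in lane as well as in sampling time, and the values are a description. LOC106571028 had log2 fold changes of 4.44 in CD and 5.60 in LAN4 from pre-stress to 1 h, above those of ier2, while LOC106592726 had 1.59 and 2.07.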

How the data were processed

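Stranded mRNA libraries of 18 gill samples, 3 in each group, were sequenced with paired ends. Raw counts of fragments per gene were deposited by the authors, 1 file per library, made with featureCounts 1.5.1 (reverse-stranded, multi-mapped and multi-gene fragments not counted, duplicates kept) on Ssal_v3.1, without normalization. RefSeq symbols of the same assembly were given by position to 34983 genes with an overlap of at least 0.5 of both spans.

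Counts of the 16 chromosomes counted completely in every library (at least 0.9 of the mean share of detected genes) were filtered with filterByExpr, TMM-normalized and fitted with 1 mean per group (edgeR 4.0.16, robust glmQLFit, glmQLFTest, R 4.3.3). P-values were adjusted by Benjamini-Hochberg over 23153 genes. DESeq2 1.42.0 was an alternative. Log2 CPM used a prior count of 2. On data simulated for CD at 1 h against pre-stress (22928 genes), 73.0% of 2-fold and 98.0% of 4-fold changes were recovered, with 9 false calls among 180. The 200 changes were planted only in genes above a floor of mean expected count, so recovery in weaker genes was not measured. Each gene was drawn on its own around a single mean for all libraries. Fish that stray in many genes at once and the lane were not simulated, nor were the diet comparisons. Recovery under those conditions was not measured.

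The members, lists and tests were chosen with earlier results of these data known. Beside the pair, up to 4 called genes per list with the largest mean change to 1 h were named, the 5 genes most correlated with each member, and the nearest neighbours. The sources used here do not say whether fish of a group came from separate tanks, so p-values measure the spread between these fish. A block for the replicate number in the labels was an alternative. Promoter motifs were planned and not searched, since no sequence was used here.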

Additional observations from a re-analysis of the deposited data

How the results depend on the processing

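The 24 values of the pair (12 comparisons of each gene) were recomputed under 24 alternatives: size factors of DESeq2, DESeq2 itself, no filter, all genes in the fit, a replicate block, only the groups compared, and 18 fits without 1 library each. The joined diet comparison holds all groups and had no fit of its own groups. No alternative called a diet difference of the pair, and the 12 changes over time kept their sign. Without 1 library the log2 change to 1 h lay between 2.46 and 2.92 (ier2) and 1.51 and 2.04 (ier2a) in CD, and between 3.06 and 3.19 and 2.26 and 2.53 in LAN4. From 1 h to 6 h that of ier2a lay between -1.42 and -0.96 in CD, and from pre-stress to 6 h between 0.60 and 0.87 in LAN4 and 0.32 and 0.77 in CD.

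The diet difference of ier2 at 6 h lay so near 0 that its sign turned, with log2 values of 0.0033 with size factors of DESeq2, 0.0026 with DESeq2, 0.011 with no filter, 0.0060 with all genes and 0.0082 with only the 6 h groups. Without 1 library it lay between -0.12 and 0.18, that of ier2 at 1 h between -0.029 and 0.35, that over all times between -0.14 and 0.013, and the change of ier2a to 6 h, LAN4 minus CD, between -0.061 and 0.39. The pre-stress difference lay between -0.54 and -0.10 for ier2 and -0.57 and -0.12 for ier2a, and with the replicate block was -0.29 for ier2 and -0.34 for ier2a, neither called. Deviations of log2 CPM from the group means were correlated across genes between CD and LAN4 fish of the same sampling time. For same-numbered fish r was 0.11 to 0.15 at pre-stress but -0.07 to 0.22 at 1 h and -0.09 to 0.09 at 6 h. For differently numbered fish r was -0.10 to -0.03, -0.23 to 0.14 and -0.24 to 0.19. These ranges were apart at pre-stress and overlapped at 1 h and 6 h. Deviations within a group sum to 0, so a higher value for same-numbered fish goes with lower values for the others. The ranges are thus not independent and do not settle whether the numbers pair the fish. The main fit did not take the numbers as pairs. Whether they pair the pre-stress fish was not tested.

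With all genes in the fit, 11 early response genes were called at 1 h in LAN4, and without 1 library between 11 and 20. In CD the count was 12 with only the groups compared, and between 12 and 19 without 1 library. The counts over all genes moved more. DESeq2 called 105, 21, 811 and 607 genes between the diets at pre-stress, 1 h, 6 h and over all times, where edgeR called 2, 0, 136 and 176, and all genes in the fit gave 1, 4, 0 and 8. From pre-stress to 1 h DESeq2 called 1017 genes in CD and 518 in LAN4, against 443 and 263, and all genes in the fit called 294 in CD. From pre-stress to 6 h the counts were 719 in CD and 876 in LAN4, 7346 and 5325 with all genes, where chromosomes without counts enter, 1235 and 1358 with DESeq2, and 107 and 546 with only the groups compared. With only the groups compared, 23 and 33 genes were called between the diets at pre-stress and 6 h. Without 1 library the counts lay between 171 and 599 for CD and 167 and 310 for LAN4 from pre-stress to 1 h, 232 and 751 and 334 and 1050 to 6 h, 1057 and 2898 and 646 and 2107 from 1 h to 6 h, and 0 and 362 between the diets at 6 h. The block gave 1 gene at pre-stress, and in the change to 1 h and to 6 h 0 genes each, against 2 and 1.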

Other observations

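The CD fish varied more in the pair than the LAN4 fish at each sampling time. For ier2 the SD of log2 CPM in pre-stress fish was 0.52 for CD and 0.078 for LAN4 (n = 3 each), followed by 0.37 and 0.15 at 1 h and by 0.30 and 0.082 at 6 h. For ier2a it was 0.49 and 0.25, 0.45 and 0.25, and 0.24 and 0.055. Over all 23153 genes the SD was larger in CD at all 3 times in 12.6%, and in 45.5% at pre-stress, 46.9% at 1 h and 58.1% at 6 h. The pair varied together, and this difference was seen in the data and was not tested.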
